A study of Mus musculus with 6 samples.

Results

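The 7 imprinted genes H19, Igf2, Meg3, Dlk1, Rtl1, Rasgrf1 and Zdbf2 were examined in C2C12 cells, an established line of mouse myoblasts, among 37252 annotated genes in all. They were taken as a list of names, chosen with earlier results of these data known. Each was listed as lying in a domain whose control region carries DNA methylation on the chromosome inherited from the father. The 7 genes form 4 loci (H19 with Igf2, Dlk1 with Meg3 and Rtl1, Rasgrf1, and Zdbf2), each taken from the first to the last base of its genes with 50 kb on either side. All rows of 3 peak tables in these windows were read, 797 kb of sequence in all.

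The study asked where the histone methyltransferase Setdb1 and the H3K9me3 mark lie in myoblasts. Chromatin immunoprecipitation with sequencing was done with a Setdb1 antibody and an H3K9me3 antibody in untreated proliferating C2C12 cells, each with an input library. The labels also list Setdb1 libraries from cells given Wnt3a and from DMSO cells, and these were not compared here. The Setdb1 table does not name the library it was called on. The authors report independent Setdb1 experiments whose signals were correlated, and used the more enriched one to call peaks. Of the 6 labelled libraries, 1 stands in each group, so no value below has a replicate, and no difference was tested. The line is 1 cell line and the reads of both parental chromosomes were pooled, so the alleles cannot be told apart. The Setdb1 table holds 1191 sites with 12 to 389 tags each (median 33) and a median enrichment of 7.32-fold over input. For H3K9me3, 80480 MACS peaks with 10 to 5949 tags (median 18) and 23268 broader SICER islands were listed. The tables give no total read number, so the depth of the libraries is unknown.

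Imprinted genes are read from only the maternal or only the paternal chromosome, as set by a control region that was methylated in one of the parents' germ cells. In mouse, the zinc finger protein ZFP57 binds the methylated hexamer TGCCGC in such regions and brings in KAP1 and SETDB1, the enzyme that trimethylates histone H3 at lysine 9. Most control regions with maternal methylation are promoters, whereas the few with paternal methylation lie between genes, away from any start: H19, Meg3 and Rasgrf1 each have one upstream. At H19 the unmethylated maternal copy is bound by the insulator protein CTCF, which keeps enhancers from Igf2.

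Setdb1 sites were listed in 2 of the 4 windows taken as control regions, those of Meg3 and of Rasgrf1. Both held clusters of ZFP57 hexamers. Over all 20 chromosomes, 0.466 Setdb1 sites were listed per Mb. The share of windows of the same length that hold a site was not counted, so the 2 of 4 is a description only. Since the files do not place the control regions, each was taken as a window of distance upstream of the gene from general knowledge: 2 to 5 kb for H19, 10 to 16 kb for Meg3, 25 to 35 kb for Rasgrf1 and 5 to 20 kb for Zdbf2. The 250 bases around the summit of the Setdb1 site upstream of Meg3 (chr12:110766541-110766790) and of the site upstream of Rasgrf1 (chr9:89774386-89774635) are shown because they carry hexamers. Each stretch holds 4 of the copies counted below, and the remaining copies lie outside the printed bases. Both stretches were read from the plus strand of the mm9 assembly, and the capitals mark TGCCGC.
Meg3 upstream site: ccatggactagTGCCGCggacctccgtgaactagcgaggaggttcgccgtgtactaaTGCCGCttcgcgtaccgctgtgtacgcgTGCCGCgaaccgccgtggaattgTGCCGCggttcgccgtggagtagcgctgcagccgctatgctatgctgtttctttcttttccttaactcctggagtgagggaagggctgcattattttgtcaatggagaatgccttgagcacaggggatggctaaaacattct
Rasgrf1 upstream site: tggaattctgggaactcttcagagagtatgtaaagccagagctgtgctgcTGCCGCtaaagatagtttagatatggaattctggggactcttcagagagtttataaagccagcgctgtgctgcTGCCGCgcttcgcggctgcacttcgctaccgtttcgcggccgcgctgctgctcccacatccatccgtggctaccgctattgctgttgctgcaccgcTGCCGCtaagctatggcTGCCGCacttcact

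The Rasgrf1 site (chr9:89774169-89774899) held 107 tags, with an exact 95% Poisson interval of 87.7 to 129 that covers counting error only, as do all intervals below. Its enrichment over input was 22.81-fold, rank 5 of the 1191 Setdb1 sites. Rasgrf1 encodes an exchange factor that activates Ras, and the site lay 30.1 kb upstream of its start in intergenic sequence. In the 500 bases around the summit TGCCGC occurred 6 times, counting both strands, and all 6 copies read 5′ to 3′ on the plus strand. They began at -75 to 215 bp from the summit, and 1 of them began at -2 bp.

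The Meg3 site (chr12:110766326-110766923) held 46 tags (33.7 to 61.4) at 14.76-fold, rank 24. Meg3 is a long noncoding RNA read from the maternal chromosome, and the site lay 12.5 kb upstream, between Dlk1 and Meg3, where the intergenic control region of the domain is known to be. It held 5 copies of TGCCGC within 250 bp of the summit. All 5 were on the plus strand and began at -160 to -17 bp from the summit. Per kb of site, the Rasgrf1 site held 146 tags and the Meg3 site 76.9.

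Such clusters were rare in the list. Within 250 bp of the summit, 120 of all 1191 Setdb1 sites (10.1%, exact binomial 95% interval 8.42 to 11.9) held the hexamer, as did 4.92% of the H3K9me3 MACS peaks and 2.98% of all sequenced windows of 500 bp. Of the Setdb1 sites, 1071 held no copy, 84 held 1 copy and 36 held 2 or more. The Rasgrf1 site was the only one with 6, and the Meg3 site was among 5 sites with 5. The other sites with 5 lay 0.677 kb from the start of Nespas, 0.114 kb from that of Nap1l5, 11.9 kb from that of Srxn1 and 104 kb from that of Gm3150. A limit of 4 copies, chosen after the counts were seen, took in 12 sites. For 8 of these 12 the nearest start belonged to one of the 7 genes (2 sites) or to an imprinted gene with a maternally methylated promoter. The share of all 1191 sites with such a nearest start was not counted, so nothing is read from the 8 of 12. Kcnq1ot1 and Peg13, also of that kind, are absent from the annotation, so a site at either would be named by another gene. All 12 lay in H3K9me3 regions, against 68.8% of all Setdb1 sites. Of the 120 sites with at least 1 copy, however, 70 lay in such regions. The hexamer was found at 8.54% of the Setdb1 sites in H3K9me3 regions and at 13.5% of those outside. The direction thus changes with the limit, and nothing is read from the 12 of 12. These counts describe the sequence under the sites, and no binding of ZFP57 was measured.

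**Figure D1:**
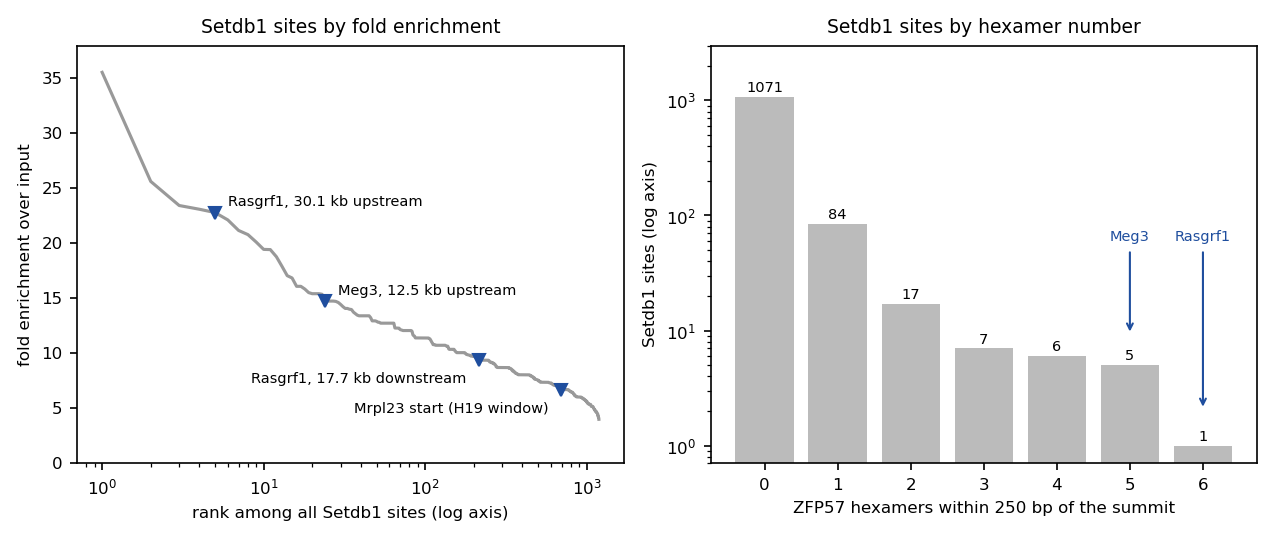
Left, fold enrichment over input of all 1191 Setdb1 sites (grey line) against their rank on a log axis, with the 4 sites of the imprinted windows as blue triangles. The Rasgrf1 upstream site stands at rank 5 (22.81-fold), the Meg3 site at rank 24 (14.76-fold), the intronic Rasgrf1 site at rank 215 (9.39-fold) and the Mrpl23 site at rank 691 (6.71-fold). Right, number of Setdb1 sites (log axis) by the number of TGCCGC hexamers within 250 bp of the summit, with arrows at the bars that hold the Meg3 site (5 copies) and the Rasgrf1 site (6 copies).

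Both sites were also rich in CpG. The ratio of observed to expected CpG in the 500 bases around the summit was 0.862 at the Meg3 site (rank 85 of 1191) and 0.824 at the Rasgrf1 site (rank 106), against a median of 0.190 over all Setdb1 sites. Their G+C content of 54.6% and 55.0% stood at ranks 188 and 179, against a median of 45.4%.

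H3K9me3 covered most of both control windows, but by different calls: MACS peaks alone covered 86.1% of the window at Meg3 and 26.5% at Rasgrf1, where most of the cover was in the SICER island only. At Rasgrf1, the Setdb1 site shared 648 bp with a MACS peak of 63 tags (48.4 to 80.6) at 12.37-fold, rank 391 of 80480 peaks, and the summits lay 144 bp apart. It also touched the end of a neighbouring peak of 43 tags (31.1 to 57.9) at 7.56-fold over 19 bp. Further peaks followed toward the gene, with 46 tags at 8.25-fold and 14 tags at 6.18-fold. These 4 peaks and the Setdb1 site stood in 1 SICER island of 9.80 kb, and 90.1% of the 10 kb control window lay in H3K9me3 regions, that is in MACS peaks and SICER islands merged.

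At Meg3, the whole Setdb1 site of 598 bp lay inside a MACS peak of 4883 bp with 351 tags (315 to 390) at 10.82-fold, rank 1149. The summits lay 67 bp apart. An adjoining peak had 55 tags (41.4 to 71.6) at 8.65-fold, and 90.2% of the 6 kb window was covered. All 10 copies of TGCCGC in this window fell in the MACS peaks, 5 of them in the Setdb1 site. Only 0.00705% of all sequenced 6 kb windows held as many copies. At Rasgrf1, 6 of 9 copies were in the Setdb1 site and all 9 in H3K9me3 regions, and 0.0365% of 10 kb windows held as many.

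The control region of Rasgrf1 is known for an array of tandem repeats that its methylation depends on. A search of the window for units of 12 to 100 bp in at least 3 copies found arrays of 156, 276 and 339 bp with units of 40, 80 and 40 bp, between 28.4 and 29.4 kb upstream of Rasgrf1. The longest held 8.48 copies at 94.3% identity. Its first 3 units (chr9:89775901-89776020, plus strand of mm9) are shown because the Setdb1 site was beside the arrays found by this search.
Rasgrf1 repeat array: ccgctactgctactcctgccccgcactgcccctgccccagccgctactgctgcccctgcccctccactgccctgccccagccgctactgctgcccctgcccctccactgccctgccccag

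The arrays began 334, 520 and 1002 bp from the edge of the Setdb1 site, on its Rasgrf1 side, and shared no base with it. Copies fewer or less alike than the search required were not counted. The printed bases of the Rasgrf1 site do hold such a repeat. The stretch that opens them, up to the first TGCCGC, recurs with a few bases changed. The hexamers that began at -75 and -2 bp from the summit end these copies, so they are not independent occurrences. Further repeat sequence inside the site is not excluded. Of the longest array 45 bp lay in a MACS peak, and of the others none, although all 3 were inside the SICER island. Only reads with 1 place in the genome were kept by the authors, and the part of that filter in the low coverage of the arrays was not tested.

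H19, a noncoding RNA read from the maternal chromosome, had no listed Setdb1 site and no MACS peak in its control window. The mark was there in the broader call only: a SICER island of 6.20 kb reached from 4.35 kb upstream of the H19 start to 1.85 kb downstream and covered 78.4% of the 3 kb window. It took in all 5 copies of TGCCGC and all 5 matches to the CTCF core GGNGGCAG in the window, counted on both strands. Of all sequenced 3 kb windows, 0.0593% held as many hexamers and 0.606% as many cores. The 60 bases around each core are shown, since these landmarks place the H19 control region inside the island. Each was read from the plus strand of mm9, where the cores appear as their reverse complement, in capitals.
H19 core at 2.17 kb upstream, chr7:149766188-149766247: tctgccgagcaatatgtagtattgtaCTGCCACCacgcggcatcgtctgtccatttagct
H19 core at 2.62 kb upstream, chr7:149766643-149766702: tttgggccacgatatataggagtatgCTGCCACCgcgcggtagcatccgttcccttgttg
H19 core at 3.65 kb upstream, chr7:149767669-149767728: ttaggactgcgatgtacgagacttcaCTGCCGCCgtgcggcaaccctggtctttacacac
H19 core at 3.77 kb upstream, chr7:149767788-149767847: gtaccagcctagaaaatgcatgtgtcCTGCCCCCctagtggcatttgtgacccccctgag
H19 core at 3.89 kb upstream, chr7:149767913-149767972: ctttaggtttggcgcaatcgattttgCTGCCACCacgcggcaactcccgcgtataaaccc

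The core at 3.65 kb upstream overlaps a TGCCGC, and elsewhere in this window the motifs do not overlap. The SICER table gives no height, so the strength of the mark at H19 cannot be set beside that at Meg3 or Rasgrf1.

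Zdbf2, a zinc finger gene read from the paternal chromosome, had no listed Setdb1 site in its window. For its 141 kb the exact Poisson 95% bound on a count of 0 is 26.1 per Mb. Of its 15 kb control window 11.9% lay in H3K9me3 regions, and the window held 1 MACS peak, of 18 tags (10.7 to 28.4) at 5.50-fold, 13.1 kb upstream. The 2 copies of TGCCGC were outside H3K9me3, and 24.0% of 15 kb windows held as many, so hexamers were not concentrated there. The window had 11 CTCF cores, 1 of them overlapping a hexamer, and 3.74% of 15 kb windows held as many. Of these cores, 3 lay in the MACS peak. Next to that peak stood an array of 4.51 units of 37 bp at 98.5% identity, whose first 3 units (chr1:63306321-63306431, plus strand of mm9) are given as the landmark of this window.
Zdbf2 repeat array: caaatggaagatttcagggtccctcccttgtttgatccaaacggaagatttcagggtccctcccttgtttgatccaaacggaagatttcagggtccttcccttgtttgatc

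**Figure D2:**
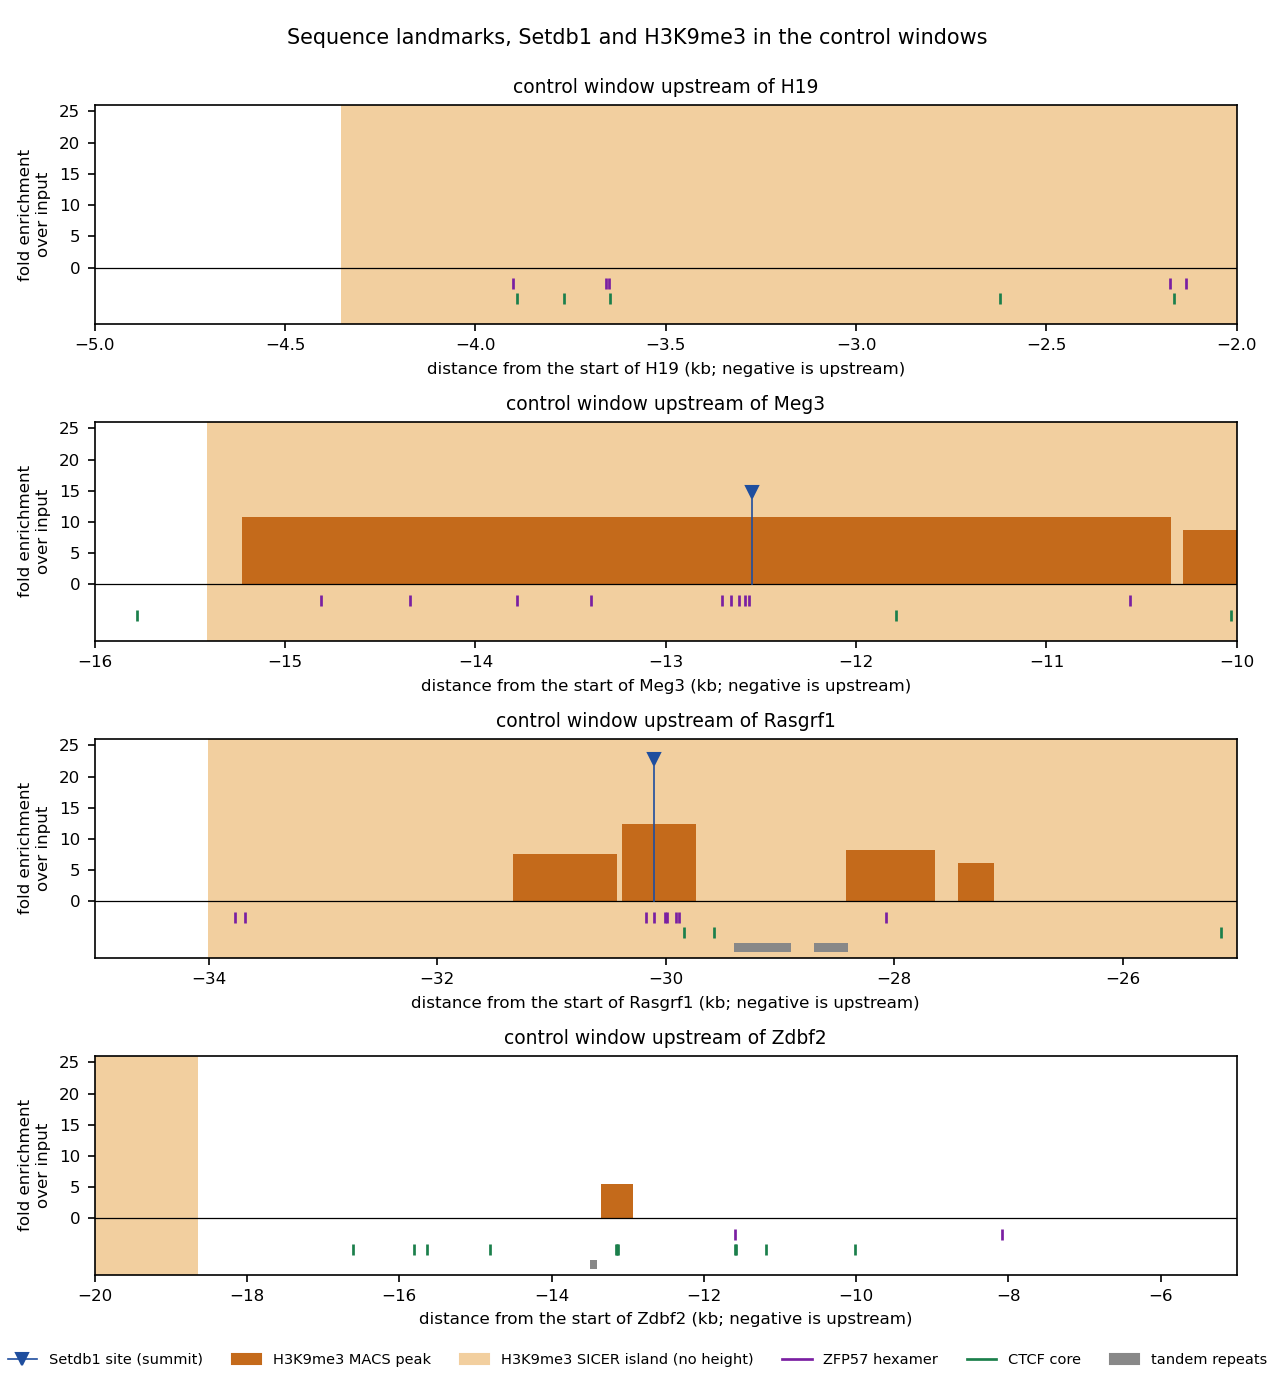
Control windows upstream of H19, Meg3, Rasgrf1 and Zdbf2, with distance from the start of the gene in kb (negative is upstream) and fold enrichment over input. Blue triangles are Setdb1 summits, orange bars H3K9me3 MACS peaks and pale bands SICER islands, and the ticks below the axis mark ZFP57 hexamers (purple), CTCF cores (green) and tandem repeats (grey). Setdb1 sites stand over clusters of 5 hexamers at Meg3 and 6 at Rasgrf1, and neither H19 nor Zdbf2 has a listed site.

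Over the 4 windows, 4 Setdb1 sites were listed, 5.02 per Mb (exact Poisson 95% interval 1.37 to 12.8), against 0.466 per Mb over all 20 chromosomes. The genes were chosen with earlier results of these data known, so the comparison is no test of enrichment. The remaining 2 sites were weaker and had no hexamer within 250 bp. One lay in an intron of Rasgrf1, 17.7 kb downstream of the start (chr9:89822072-89822408), with 20 tags (12.2 to 30.9) at 9.39-fold, rank 215. It shared 255 bp with a MACS peak of 24 tags (15.4 to 35.7) at 6.87-fold and stood in an island of 5.80 kb. The other lay 0.555 kb from the start of Mrpl23, a mitochondrial ribosomal protein gene 44.6 kb downstream of H19 (chr7:149719212-149719707). It had 24 tags (15.4 to 35.7) at 6.71-fold, rank 691, and the nearest H3K9me3 region was 42.5 kb away.

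Of the 4 sites, 3 were in H3K9me3 regions, a share close to the 68.8% of all Setdb1 sites, so nothing is read from it. A Setdb1 site lay within 50 kb of 3 of the 7 genes (H19, Meg3 and Rasgrf1), against 7.97% of all genes, and a site in H3K9me3 within 50 kb of 2 of the 7 (Meg3 and Rasgrf1), against 5.17%. The 7 genes are not independent, since they share 4 loci, and they were chosen with earlier results known.

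The distance limit decided several of these counts. Dlk1 lay 64.8 kb and Rtl1 60.5 kb from the Meg3 site, and Igf2 was 117 kb from the Mrpl23 site. Zdbf2 lay 72.6 kb from a site of 65 tags (50.2 to 82.8) at 11.41-fold, rank 87, inside Gpr1 and 0.142 kb from the start of Gm11607 (chr1:63246359-63247236). That site was in an H3K9me3 region, overlapped a MACS peak of 72 tags at 5.89-fold and held 3 hexamers. It is outside the window of 50 kb and is not counted in it. Whether this site belongs to the control of Zdbf2 was not examined.

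**Figure D3:**
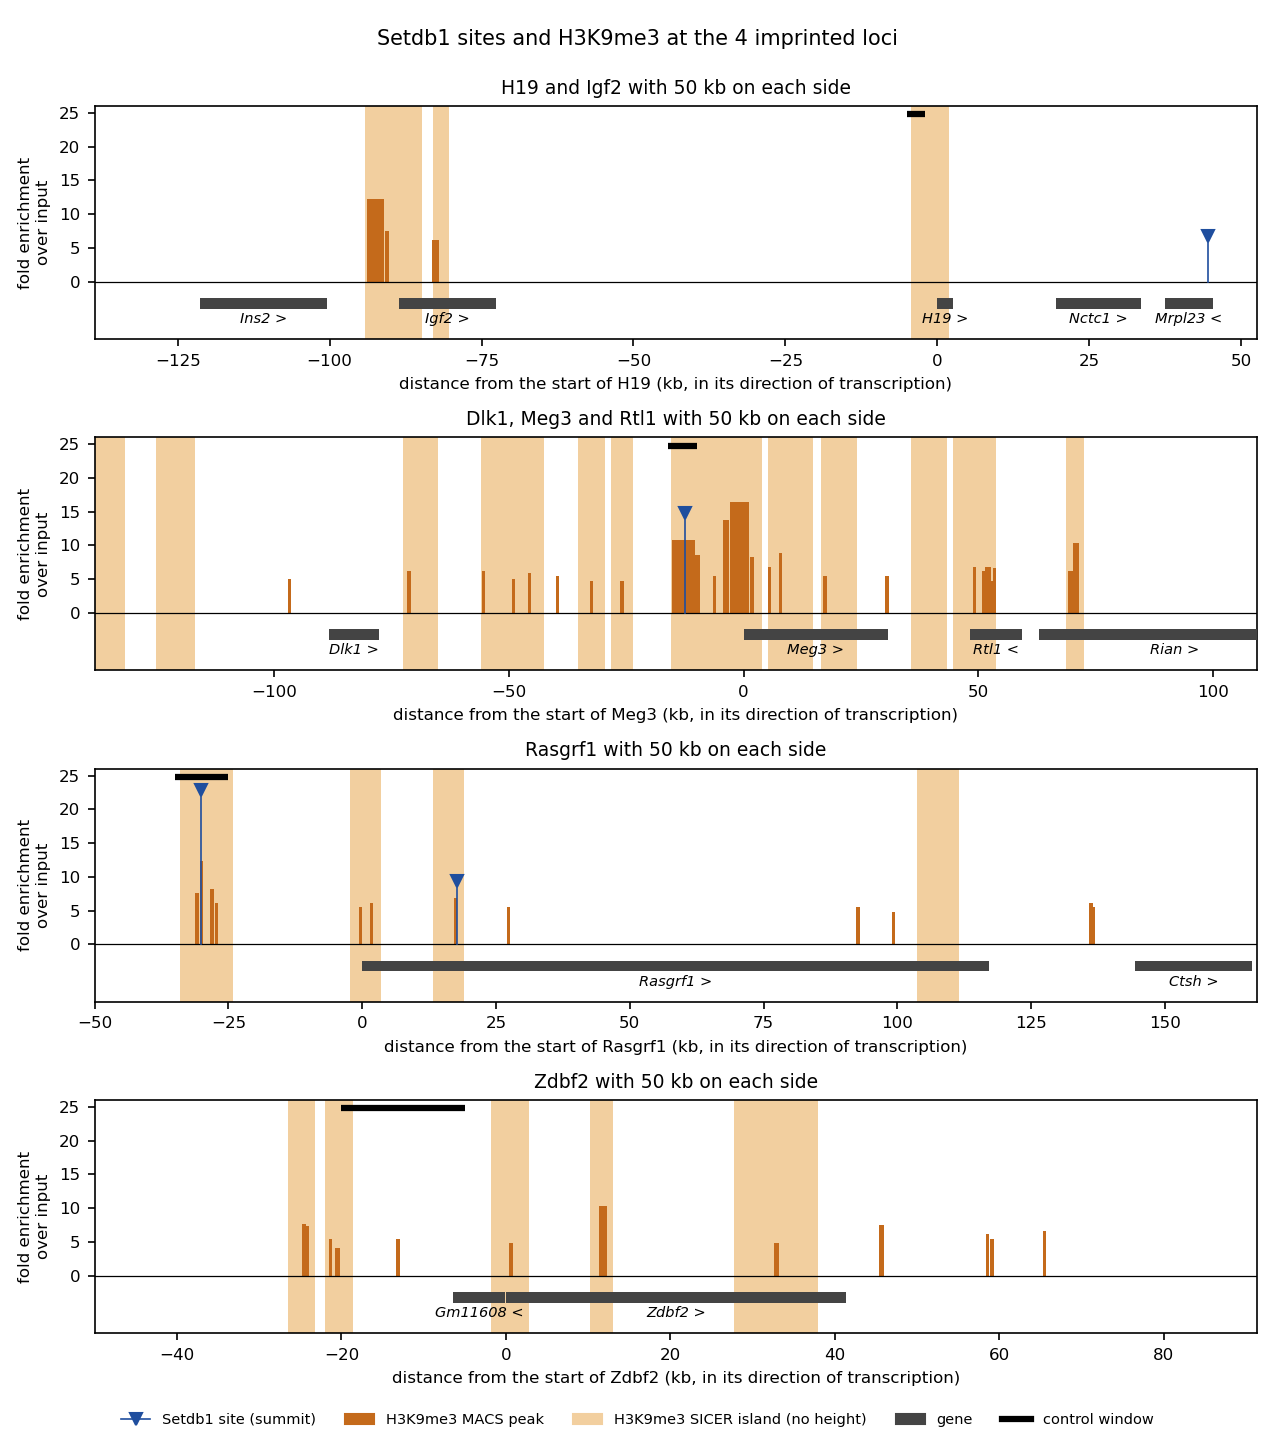
Maps of the 4 loci with 50 kb on each side, with distance in kb from the start of H19, Meg3, Rasgrf1 or Zdbf2 in the direction of its transcription, and fold enrichment over input. Blue triangles are Setdb1 sites, orange bars H3K9me3 MACS peaks (narrow ones widened to be visible), pale bands SICER islands, which have no height, dark boxes genes with an arrowhead for direction, and black bars the control windows. The Dlk1, Meg3 and Rtl1 locus holds 25 of the 53 MACS peaks and 12 of the 24 islands.

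H3K9me3 covered 22.6% of the 4 windows, against 7.40% of all 20 chromosomes, and MACS peaks alone covered 4.85% against 1.65%. The windows held 53 MACS peaks, 66.5 per Mb against 31.5 per Mb overall. The mark was spread unevenly among the loci. It covered 42.2% of the Dlk1, Meg3 and Rtl1 window, 18.6% of the Zdbf2 window, 14.2% of the Rasgrf1 window and 9.55% of the H19 and Igf2 window. The Dlk1, Meg3 and Rtl1 window held 101 MACS peaks per Mb, the Zdbf2 window 84.9, the Rasgrf1 window 55.2 and the H19 and Igf2 window 20.9.

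In the Dlk1, Meg3 and Rtl1 locus the mark was stronger toward Meg3 than around Dlk1. Dlk1, which encodes a Notch-like transmembrane protein and is read from the paternal chromosome, had no H3K9me3 region over its body of 10.5 kb or within 1 kb of any of its 9 starts. The 77.7 kb between the end of Dlk1 and the start of Meg3 held 12 MACS peaks with 1039 tags in all and were covered to 60.6%. The 7 peaks of that stretch nearest to Dlk1 had 10 to 30 tags at 4.69-fold to 6.18-fold, before the control region peak of 351 tags.

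The strongest peak by fold and by tags in the 4 windows lay over the Meg3 start, not over the control region. It spanned 4245 bp (chr12:110776215-110780459) and had 382 tags (345 to 422) at 16.49-fold, rank 54 of 80480, with its summit 2.81 kb upstream of the Meg3 start. The authors' table gives it a false discovery rate of 4.44%. A peak just upstream had 116 tags (95.9 to 139) at 13.74-fold, rank 184. No hexamer lay within 250 bp of either summit, and no Setdb1 site overlapped them. One SICER island of 19.4 kb joined the control region to the Meg3 start, reaching from 15.4 kb upstream to 3.99 kb downstream, and 70.0% of the Meg3 body was covered.

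Rtl1, a gene derived from a retrotransposon and read from the paternal chromosome, had no H3K9me3 region within 1 kb of its start. Its body, in contrast, was covered to 50.3% and held 5 MACS peaks of 11 to 58 tags at 4.81-fold to 6.87-fold. On the opposite strand of Rtl1 lie miRNA genes read from the maternal chromosome. MACS peaks lay over 4 of the 6 miRNA genes inside Rtl1: Mir431 (31 tags, 6.87-fold), Mir433 (32 tags, 6.18-fold), Mir127 (58 tags, 6.87-fold) and Mir434 (36 tags, 6.61-fold). In all, 6 of the 22 miRNA genes of the windows lay under a MACS peak, against 2.16% of the 1576 annotated miRNA genes. The 6 are close together in 1 locus, so they are not independent. The other two, Mir341 and Mir1188, shared a peak in Rian, another noncoding RNA of the domain, with 85 tags (67.9 to 105) at 10.31-fold. The mature forms of the miRNAs in Rtl1 that were under a peak are given from RefSeq (GRCm38.p6; all 6 miRNA genes were matched by name), with bases 2 to 8, the seed, in capitals. No 2 of the 4 shown share a seed.
mmu-miR-431-5p: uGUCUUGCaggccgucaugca
mmu-miR-433-3p: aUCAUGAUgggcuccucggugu
mmu-miR-127-3p: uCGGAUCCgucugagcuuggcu
mmu-miR-434-3p: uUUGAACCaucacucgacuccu

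Igf2, a growth factor gene read from the paternal chromosome, carried the mark just upstream. A MACS peak of 2693 bp (chr7:149855143-149857835) held 207 tags (180 to 237) at 12.17-fold, rank 554, with its summit 3.71 kb upstream of the 5′ end of Igf2. A peak of 29 tags (19.4 to 41.6) at 7.56-fold lay in an exon of Igf2as, a noncoding RNA on the other strand. Inside Igf2, 2 smaller peaks of 18 and 20 tags lay near the starts of shorter transcripts. Of 9 annotated Igf2 starts, 7 were within 1 kb of an H3K9me3 region. The 72.6 kb between H19 and Igf2 held no MACS peak, and the island at H19 was its only mark, over 5.99% of it.

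The Rasgrf1 body of 117 kb carried more of the mark than the 7.40% of all 20 chromosomes. H3K9me3 regions covered 15.6% of the body, and most of this cover was in 3 SICER islands. The 5 MACS peaks there were short, 276 to 482 bp. They had 12 to 24 tags at 4.81-fold to 6.87-fold, all weaker than the strongest peak in the control region. At the Rasgrf1 start a peak of 22 tags (13.8 to 33.3) at 5.50-fold lay with its summit 0.146 kb upstream, in a sequence with a CpG ratio of 0.875 (rank 292 of 80480).

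In Zdbf2 the strongest peak lay in an intron (chr1:63331151-63332114), with 59 tags (44.9 to 76.1) at 10.31-fold, rank 1257. A peak of 14 tags (7.65 to 23.5) at 4.81-fold was 0.650 kb downstream of the Zdbf2 start. It was weak, but its CpG ratio of 1.14 ranked 20 among all 80480 peaks. The Zdbf2 body was covered to 38.2%.

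Starts with an H3K9me3 region at 1 kb or less were found at 5 of the 7 genes (H19, Igf2, Meg3, Rasgrf1 and Zdbf2, but not Dlk1 and Rtl1), against 11.6% of all genes. A SICER island lay there at the same 5, against 8.60% of all genes, and a MACS peak at 4 of these 5, H19 being the exception, against 8.25%. At the level of starts, the mark was near all 5 H19 starts and all 10 Meg3 starts, 2 of 3 Zdbf2 starts and the 1 start of Rasgrf1.

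The distance of Setdb1 from the starts was set beside that at imprinted genes with a maternally methylated promoter, a list of 18 names. Of these names, Kcnq1ot1 and Peg13 were not in the annotation and were left out. Of the 7 genes, none had a Setdb1 summit within 10 kb of a start, and the distance ran from 12.5 to 124 kb (median 68.6 kb). Over all genes, 1.99% had a summit within 10 kb of a start and 0.682% within 1 kb, so none of 7 is not set apart from all genes. Of the 16 maternally methylated genes found in the annotation, 12 had one within 10 kb and 10 within 1 kb (median 0.715 kb). A promoter list must put its control regions at starts, so the direction of this difference is partly fixed by the lists, and it was not tested. H3K9me3 was near a start, by the same limit, at 5 of the 7 and at 15 of the 16.

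In strength the 2 control region sites were among those of the promoter list. The 22.81-fold and 14.76-fold of Rasgrf1 and Meg3 stood beside a range of 5.18-fold to 35.56-fold over the 12 nearest sites of the promoter genes (median 9.27-fold). Hexamers were counted at both: 6 and 5 copies at Rasgrf1 and Meg3, against 0 to 5 (median 3.50) in the promoter list, where 11 of the 12 sites held at least 1 copy.

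**Figure D4:**
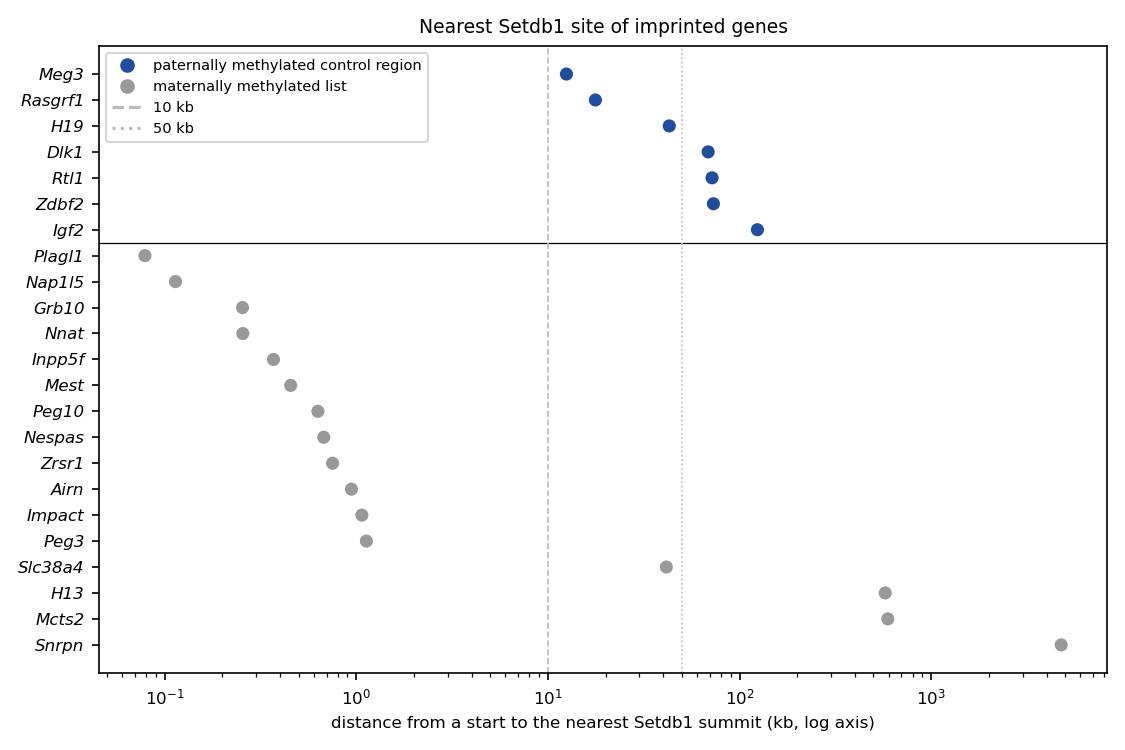
Distance in kb, on a log axis, from any annotated start of a gene to the nearest Setdb1 summit, for the 7 genes with a paternally methylated control region (blue, above the line) and the 16 annotated genes of the maternally methylated list (grey). The blue points run from 12.5 to 124 kb, and 12 of the 16 grey points lie left of the dashed line at 10 kb.

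The neighbouring genes of the loci were counted by the same limits. Of 17 neighbours, 1 (Mrpl23) had a start with a Setdb1 summit at 10 kb or less (1.99% over all genes), and 3 (Begain, Mirg and Dio3) had an H3K9me3 region within 1 kb of one, against 11.6%. Counts this small are not read as a difference from all genes.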

How the data were processed

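Setdb1 and H3K9me3 were measured by ChIP-seq in C2C12 myoblasts, with 1 library in each of the 6 labelled groups. The authors aligned the reads to mm9 with Bowtie 0.12.7, keeping reads with 1 place in the genome and removing duplicates, and called peaks with MACS 1.4 over input. They cut the Setdb1 table by p, false discovery rate and fold, and called broad H3K9me3 islands with SICER. Which Setdb1 library underlies the Setdb1 table is not stated in it. In the deposited tables, tags are a count of reads per peak, enrichment is a fold ratio over input, the score is the caller's log10 transform of its p-value, and the false discovery rate is in percent. No table gives total reads. The SICER table gives positions only.

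From these tables, peaks and islands were placed on the reference of the same build (NCBIM37) with GENCODE vM1 genes, using Python 3.11.15, NumPy 2.4.6, pandas 2.3.3 and SciPy 1.17.1. An overlap was at least 1 bp. H3K9me3 regions were MACS peaks and SICER islands merged (52190 regions). Motifs were searched on both strands. Tandem repeats needed 75% identity. Rates were counted per sequenced base, and intervals are exact at 95%. The scripts were tested on simulated data. The alternatives changed the flank, the distance from a start, the overlap, the caller and the fold. Genes named were the 7 listed genes, listed neighbours, the maternally methylated list, and genes holding or nearest to a site or peak described. The 7 genes and the lists were chosen with earlier results of these data known.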

Additional observations from a re-analysis of the deposited data

How the results depend on the processing

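With a flank of 25 kb the 4 windows held 2 Setdb1 sites in place of 4, because the Rasgrf1 site 30.1 kb upstream and the Mrpl23 site fell outside. With 100 kb, 6 of the 7 genes were near a site in place of 3, and 5 sites in place of 3 were in H3K9me3 regions, since wider windows take in more sequence. The share of all genes near a site at 100 kb was not counted. Several of the 6 genes share a site, so nothing is read from the 6 of 7. H3K9me3 cover of the windows, 22.6%, was 25.9% with 25 kb, 19.8% with 100 kb, 4.85% with MACS peaks alone, 22.0% with SICER islands alone, and 22.0% with MACS peaks limited to p below 1e-05 and SICER islands. The number of genes with H3K9me3 at a start stayed at 4 or 5 under its 6 alternatives. No paired analysis was possible because there is 1 library per group. With unknown depth and no replicate, differences of a few tags cannot be read, and reads with several places in the genome had been removed.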
